A study of Mus musculus with 19 samples.

Results

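The genes described here are the vitamin A storage and signalling genes of hepatic stellate cells (HSCs): Lrat and Dgat1, which form retinyl esters, Rbp4, which carries retinol, Aldh1a1 and Aldh1a2, which make retinoic acid, and the nuclear receptors Rara, Rarb and Rxra. They were chosen by name, by a rule that sets no measured value, and with earlier results of these data known. They are 8 of the 55487 genes in the deposited table. All 8 were among the 15138 genes that passed the filter on low counts, although Aldh1a2 had counts only at 96 h, and Rarb only there and in 1 sample at 18 h, so that both passed through the group where they are high. RNASeq was measured in HSCs of healthy male Balb/c mice aged 23 to 24 weeks, which received no treatment and were sorted on their ultraviolet positivity, the property given by stored vitamin A. The 2 samples of 0 h were never cultured, and the others were grown on a collagen coat, with 10% serum in the medium, for 3, 6, 12, 18 or 96 h (3 samples each) or for 24 h (2 samples). Each sample stands for 2 technical repeats, which the table does not separate. The cultures model HSC activation in a dish rather than in the liver, and all cells had been selected for the vitamin A content that several of these genes serve.

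Quiescent HSCs hold most of the body's vitamin A, as retinyl esters in lipid droplets, and lose these droplets when they become myofibroblasts. Retinol reaches cells bound to RBP4, which hepatocytes secrete together with transthyretin, and inside the cell LRAT joins it to a fatty acid for storage. Retinol can instead be oxidised to retinal and then, by the ALDH1A enzymes, to retinoic acid, which binds receptors of the RAR family. These act as dimers with an RXR on direct repeats of a short motif near their target genes, and Rarb and the retinoic acid-degrading enzyme gene Cyp26a1 are textbook examples of such targets.

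The sequences below show direct repeats of such a motif in the mouse genome, and which receptors bind them was not tested. The stretch from 250 bases before to 50 bases after each annotated gene start (RefSeq, GRCm38.p6) was searched on both strands for direct repeats of a receptor core motif spaced by 1, 2 or 5 bases. The motif could read AGGTCA (the usual form), GGGTCA (a first variant), AGTTCA (another) or else GGTTCA. Windows were at hand for 7 of the 8 genes, 13 windows in all, the exception being Dgat1. The Rarb window was the only member window that held such a repeat, with a spacing of 5 bases, at positions -53 to -37 from the start of its RefSeq transcript. That start lies inside the longer span that GENCODE gives for Rarb further on, not at its outer end. Among the windows of the other retinoid pathway genes listed further on, Bco1 held a repeat with a spacing of 1 base at -56 to -44, and Cyp26a1 one with a spacing of 5 bases at -32 to -16, both on the opposite strand. Of all 32851 windows, 0.0974% held a repeat spaced by 5 bases, 0.268% one spaced by 2 and 0.222% one spaced by 1, while 43.7% held at least one of the motifs by itself. The 3 stretches of 30 bases are printed on the strand of their gene, with the repeated motifs in capitals, because the 3 genes that held a repeat had unlike levels in culture.
Rarb, chr14:16575506-16575535, minus strand: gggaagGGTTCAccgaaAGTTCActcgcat
Bco1, chr8:117095801-117095830, plus strand: ttgggaacTGACCTtTGACCTaacacacac
Cyp26a1, chr19:37697770-37697799, plus strand: taaagaTGAACTttgggTGAACTaatttgt
The annotation (GENCODE vM21) places the Rarb and Cyp26a1 stretches in an untranslated exon of the same gene and lists no feature at the Bco1 stretch. A match of letters is a description, and no binding was measured.

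The samples held 2073171 to 7690892 counts, with a median of 4954915, so that 3 counts, taken as the smallest level that can be shown, corresponded to 0.39 to 1.45 CPM (a gene's counts relative to the total of its library, with TMM scaling). All 16 HSC markers had counts at 0 h, among them Reln with 2301 CPM, and their summed level went from 38570 CPM without culture to 22012 by 6 h, 2262 by 24 h and 3067 by 96 h. Dcn alone made up 19179 CPM of this sum at 0 h and 1929 at 96 h. At 96 h 12 of the 16 were called lower than at 0 h and none higher, while Des had 123 CPM at 0 h and 112 at 96 h. The 17 hepatocyte markers summed to 7116 CPM at 0 h, with Alb at 3130, Serpina1c at 347 and Apoa1 at 316 CPM, and to 984 at 3 h, 261 at 6 h and 81.8 at 96 h. The 12 markers of sinusoidal endothelial cells summed to 3886 CPM at 0 h, 3723 at 3 h and 792 at 96 h. Most of the sum at 0 h and at 96 h was Ehd3, with 2767 and 704 CPM. At 3 h Ehd3 was lower (2767 to 1355 CPM) and other markers had higher means, such as Dnase1l3 (161 to 721 CPM), Kdr (222 to 439 CPM) and Stab2 (83.2 to 312 CPM, and 0 at 96 h), although none was called higher. Cdh5 went from 34.4 CPM at 0 h to 159 at 18 h and 14.2 at 96 h. The 15 markers of Kupffer cells and leukocytes summed to 428 and 16.6 CPM, those of cholangiocytes to at most 19.1 CPM in any sample and those of mesothelial cells and portal fibroblasts to at most 77.3. Krt19, Krt7, Msln and Upk3b were at 0 at 0 h and at 96 h. Many genes had counts in one sample and none in its replicate: of the genes with over 50 counts in 1 sample of a timepoint, between 6.81% (24 h) and 20.1% (18 h) had 0 counts in another sample of that timepoint. In bulk samples, fewer cells of a type and less RNA per cell cannot be told apart.

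First, the number of vitamin A genes that changed was determined at each timepoint, with edgeR's quasi-likelihood test and Benjamini-Hochberg adjustment over all genes tested. A gene counted as called when its fold change exceeded 2 and its adjusted p was under 0.1. At 3 h only Rxra was lower than at 0 h, 1 of 8 genes against 1.39% of all genes tested. At 6 h Lrat, Aldh1a1 and Rxra were lower (3 of 8, against 4.35% of all genes), and Rbp4 joined them at 12 h (4 of 8, against 9.1%). At 18 h Rara was lower as well, which made 5 of 8 against 8.21% of all genes. At 24 h Lrat, Aldh1a1, Rara and Rxra were lower, 4 of 8 against 3.86%. At 96 h Lrat, Rbp4 and Rara were lower (3 of 8, against 5.03%), while Aldh1a1 was higher than at 0 h (1 of 8, against 5.83%). All comparisons against 0 h share the same 2 control samples. None was called higher at 3, 6, 12, 18 or 24 h, when 4.19%, 6.98%, 8.6%, 7.64% and 5.65% of all genes were, in that order. The count at 3 h was 0 without 0 h replicate 2 or without any 1 of the 3 h samples. That at 18 h was 3 without 0 h replicate 2 or 18 h replicate 1, and that at 24 h was 2 without replicate 2. The count at 96 h was 1 without 0 h replicate 3, 96 h replicate 2 or 96 h replicate 3, and 2 without 0 h replicate 2.

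Over the 8 genes, the log2 fold change against 0 h had its median at -0.62 after 3 h, -2.14 after 6 h and -2.46 after 12 h. The median was -2.15 after 18 h, -2.06 after 24 h and -0.40 after 96 h. The 8 genes include Aldh1a2 and Rarb, which had no counts at 0 h and passed the filter through 96 h, where they are high. Up to 24 h neither had counts, except Rarb in 18 h replicate 1, so their changes over that time carry no information. The medians up to 24 h are therefore not the typical change of 8 measured genes. For the same reason the median at 96 h is no measure of a return towards 0 h. Over all genes tested the median was 0.00 at every timepoint up to 24 h and 0.07 at 96 h. Over all 7 timepoints together, Lrat, Rbp4, Aldh1a1 and Rxra varied at an adjusted p below 0.1, as did 27.4% of all genes. Rarb also had an adjusted p below this (0.0686), but it entered the test through 96 h, where it is high, and its value is no support. In edgeR's test over all timepoints Aldh1a1 had the lowest adjusted p of the 8 (6.53e-06), followed by Lrat (1.53e-05), and the values of Rara (0.115), Aldh1a2 (0.123) and Dgat1 (0.485) did not pass. Between neighbouring timepoints, 3 of the 8 genes (Lrat, Aldh1a1 and Rxra) fell from 3 h to 6 h, against 1.99% of all genes, and 1 (Aldh1a1) rose from 24 h to 96 h, against 1.37%. The count from 3 h to 6 h was 0 without 3 h replicate 2 or 6 h replicate 3 and 1 without 3 h replicate 1 or 6 h replicate 1. None was called by edgeR from 6 h to 12 h, from 12 h to 18 h or from 18 h to 24 h, steps at which 1.84%, 0.225% and 0.0396% of all genes were called in either direction. At an unadjusted p below 0.05 the numbers for these 3 steps were 1, 2 and 0 of 8, and DESeq2 called 1 of 8 at each step, Lrat at the first and Rarb at the later ones. The Rarb calls rested on 18 h replicate 1 alone, the only sample up to 24 h with counts of this gene.

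**Figure D1:**
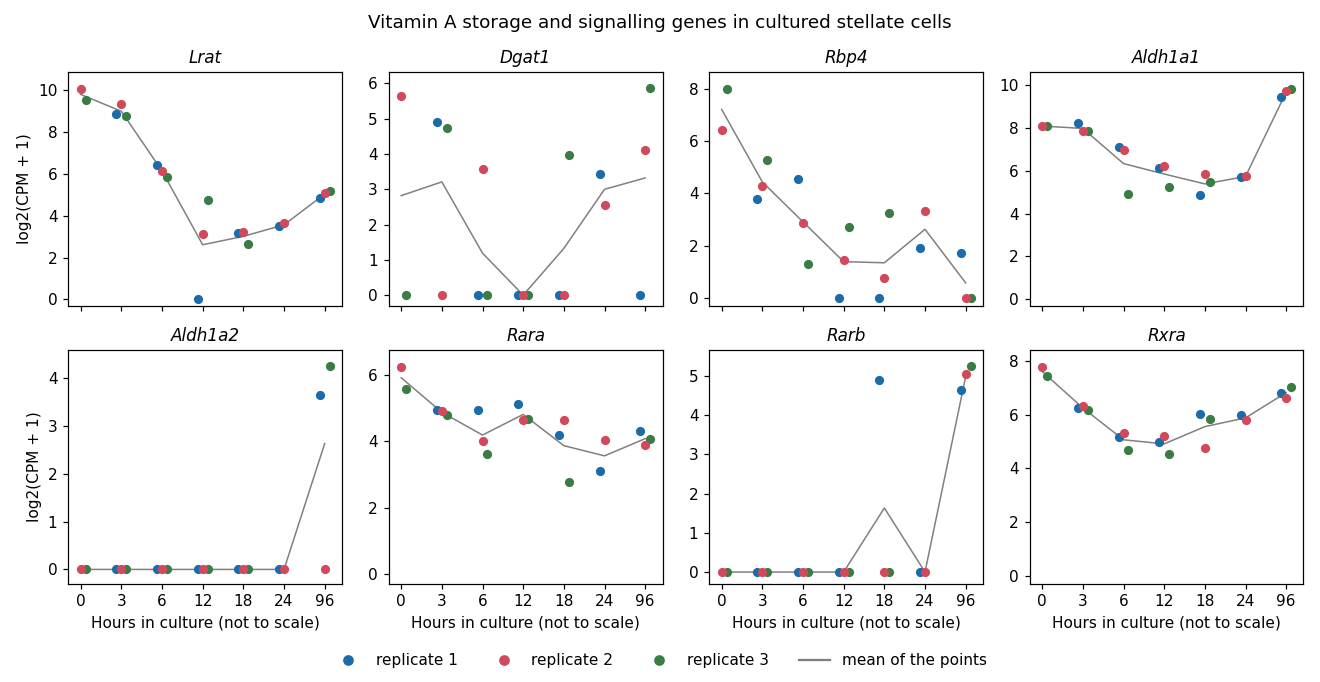
Level of the 8 vitamin A genes in each sample, as log2(CPM + 1), against hours in culture; points are samples coloured by replicate number and the grey line joins the means. Lrat, Rbp4 and Rxra started at their highest levels, Aldh1a1 was highest at 96 h, and Rarb and Aldh1a2 lay at 0 in all samples but 4 and 2.

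Lrat (ENSMUSG00000028003, chr3:82892579-82903973, minus strand, GRCm38), the gene of the enzyme that esterifies retinol for storage, was called lower from 6 h onwards. It measured 1074 and 735 CPM in replicates 2 and 3 at 0 h and 467, 651 and 433 CPM in replicates 1, 2 and 3 at 3 h. At 6 h the values were 86, 69 and 56.6 CPM, and at 12 h they were 0, 7.63 and 25.6. The samples at 18 h held 8.04, 8.42 and 5.21 CPM and those at 24 h 10.3 and 11.4, after which 28.1, 32.7 and 35.0 CPM were measured at 96 h. All samples at 0 h thus lay above all samples at 3 h, and these above all later ones. Relative to 0 h the log2 fold change was -0.81 ± 0.78 (SE) at 3 h and did not pass edgeR's test (adjusted p = 0.696). It was -3.68 ± 0.82 at 6 h, which left 7.79% of the level at 0 h (adjusted p = 0.00783), and -6.96 ± 0.94 at 18 h, which left 0.8% (adjusted p = 8.84e-05). From 3 h to 6 h alone Lrat fell by 2.87 ± 0.76 on the log2 scale (adjusted p = 0.0448), a call that was lost without 3 h replicate 2 (adjusted p = 0.121) or without replicate 1, 2 or 3 at 6 h (0.105, 0.111 and 0.161). At 96 h the 3 samples lay above both samples of 24 h, a log2 difference of 1.55 ± 0.86 that did not pass the test (adjusted p = 0.522), and Lrat was still called lower than at 0 h (-4.82 ± 0.86, adjusted p = 0.00144). In order of mean level the timepoints ran 0, 3, 6, 96, 12, 24 and 18 h. The samples of 12 h overlapped those of 24 h and of 18 h, and edgeR called no difference between 18 h and 24 h.

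Lrat was lower than at 0 h within each replicate number that had a sample at 0 h. In number 2 the log2 change was -3.95 at 6 h, -6.93 at 18 h and -5.02 at 96 h, and in number 3 it was -3.69, -7.03 and -4.37. The 2 numbers come from different dates in the sample labels, so that the fall was present on both. In none of the 12 alternatives tried at each of 6, 12, 18 and 96 h or the 11 at 24 h was the call against 0 h lost, and the fitted log2 fold change at 18 h ranged from -7.26 to -6.72.

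Dgat1 (ENSMUSG00000022555, chr15:76502015-76511953, minus strand) codes for an acyltransferase that makes triglycerides and can also esterify retinol. Its counts jumped between 0 and well above the depth limit among samples of the same timepoint. It was 48.9 CPM in replicate 2 and 0 in replicate 3 at 0 h, and 28.9, 0 and 25.5 CPM in the 3 samples at 3 h. Replicate 2 held 10.9 CPM at 6 h and the other two samples 0, and all 3 samples were at 0 at 12 h. Replicate 3 held 14.7 CPM at 18 h and the others 0, both samples had counts at 24 h (9.87 and 4.89 CPM), and at 96 h the values were 0, 16.2 and 57.1 CPM. No comparison called Dgat1 with edgeR, while DESeq2 called it lower at 12 h. With 195 counts in one sample at 0 h and none in the other, the spread at 0 h alone was nearly as wide as the range over all samples.

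Rbp4 (ENSMUSG00000024990, chr19:38116629-38125281, minus strand), the gene of the retinol carrier of plasma, was lower in every cultured sample, with a wide spread between replicates. It measured 84 and 255 CPM in replicates 2 and 3 at 0 h, then 12.6, 18.2 and 37.5 CPM at 3 h and 22.2, 6.36 and 1.46 CPM at 6 h. At 12 h the values were 0, 1.7 and 5.6 CPM, at 18 h 0, 0.702 and 8.57, at 24 h 2.79 and 9, and at 96 h 2.29, 0 and 0. Both samples at 0 h lay above all the others. Relative to 0 h the log2 fold change was -2.89 ± 1.76 at 3 h (adjusted p = 0.47, edgeR) and -4.08 ± 1.84 at 6 h (0.201), neither of which passed. It was -6.08 ± 1.99 at 12 h (0.0538), -5.76 ± 1.97 at 18 h (0.0703) and -7.86 ± 2.18 at 96 h (0.0324), which all passed. At 24 h it was -4.83 ± 2.24 and did not pass (0.256). The calls at 12, 18 and 96 h were lost without 0 h replicate 3 (adjusted p 0.232, 0.277 and 0.158). That at 12 h was also lost without replicate 1 or 2 of that time (0.118 and 0.149). That at 18 h was lost without 0 h replicate 2, 18 h replicate 1 or 18 h replicate 2 (0.106, 0.148 and 0.178). That at 96 h was lost without replicate 2 or 3 (0.105 and 0.107).

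Hepatocyte transcripts were also lower in culture. Of the 17 hepatocyte markers, the numbers called lower after 3, 6, 12, 18, 24 and 96 h were 1, 9, 11, 15, 8 and 14, and none was higher. The median log2 fold change of these markers was -2.86 at 3 h, beside -2.89 for Rbp4, and -5.17 at 6 h, beside -4.08. At 24 h it was -7.11, beside -4.83, and at 96 h -7.20, beside -7.86. The sample with more Rbp4 at 0 h, replicate 3, was also the one with more hepatocyte transcripts, 9645 against 4588 CPM. At 6 h the order was the opposite, since replicate 3 had the most hepatocyte transcripts (496 CPM) and the least Rbp4 (1.46 CPM), and replicate 1 the fewest (131 CPM) and the most Rbp4 (22.2 CPM). Per 1000 CPM of hepatocyte markers there were 26.4 and 18.3 CPM of Rbp4 in replicates 3 and 2 at 0 h, and between 19.5 and 33.1 CPM at 3 h. From 6 h the ratio rested on few counts and ranged from 2.95 to 170 at 6 h, from 0 to 26 at 12 h, from 0 to 42.6 at 18 h and from 0 to 19.2 after 96 h. At 24 h it was 38.3 and 97.9, above both values without culture. Ttr, the gene of the protein that binds RBP4 in plasma, was 405 and 917 CPM in replicates 2 and 3 at 0 h, a mean of 103 CPM at 3 h and 4.01 at 96 h, with a log2 fold change at 96 h of -7.46 (adjusted p = 0.021). Replicate 3 at 0 h thus held more Rbp4, more Ttr and more of the hepatocyte markers than replicate 2. The part of hepatocyte RNA in the fall of Rbp4 was not tested.

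**Figure D2:**
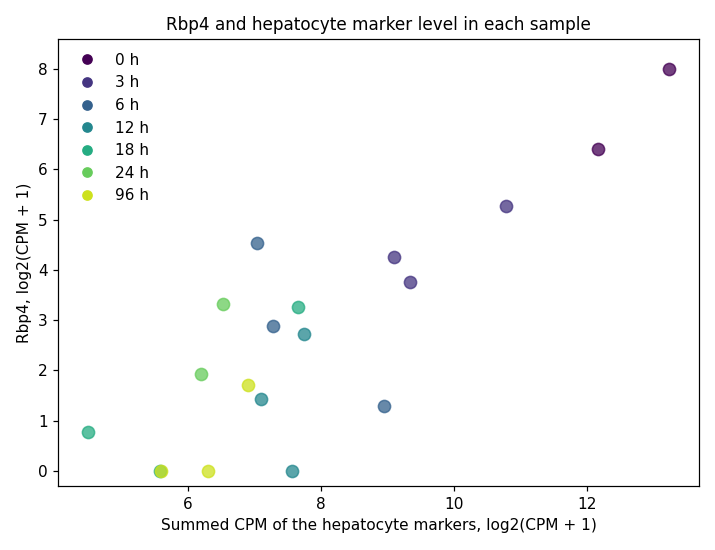
Rbp4 against the summed CPM of the 17 hepatocyte markers in each of the 19 samples, both as log2(CPM + 1), with points coloured by hours in culture. The 2 samples at 0 h lie at the upper right, with 4588 and 9645 CPM of hepatocyte markers, and the samples of 3 h come next along the horizontal axis.

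Aldh1a1 (ENSMUSG00000053279, chr19:20492715-20643465, plus strand), the gene of a retinal dehydrogenase, fell and then rose past its starting level. It measured 271 and 270 CPM at 0 h in replicates 2 and 3 and 294, 232 and 230 CPM at 3 h, so that these 2 timepoints overlapped. At 6 h the values were 139, 123 and 29.2 CPM, at 12 h 68.1, 72.6 and 36.4, at 18 h 27.8, 56.2 and 43.2, and at 24 h 50.6 and 53.6. At 96 h they were 693, 846 and 907 CPM, above every earlier sample. Relative to 0 h the log2 fold change was -0.10 ± 0.46 at 3 h, -1.48 ± 0.46 at 6 h (adjusted p = 0.054, edgeR), -2.20 ± 0.46 at 12 h (0.00374), -2.67 ± 0.47 at 18 h (0.000954) and -2.37 ± 0.53 at 24 h (0.0095). At 96 h it was 1.59 ± 0.49, or 302% of the level at 0 h (adjusted p = 0.055), and from 24 h to 96 h it rose by 3.97 ± 0.55 on the log2 scale (adjusted p = 0.000738). Within replicate numbers 2 and 3 the log2 change between 0 h and 96 h was 1.64 and 1.75. No difference was called between 12 h and 18 h or between 18 h and 24 h.

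From 6 h onwards the direction of each Aldh1a1 change against 0 h held in all alternatives, but 2 of the calls were lost in some of them. The call at 6 h was lost without 0 h replicate 2 or 3 (adjusted p 0.182 and 0.165) and in a fit of only the 0 h and 6 h samples (0.254). The call of a rise over 0 h at 96 h was lost without 0 h replicate 2 or 3 (0.257 and 0.234) and without 96 h replicate 2 or 3 (0.111 and 0.126), although the fitted log2 fold change stayed between 1.45 and 1.74. The call from 3 h to 6 h (-1.38 ± 0.42, adjusted p = 0.0932) was lost without replicate 1, 2 or 3 at 3 h (0.232, 0.149 and 0.15) or 6 h replicate 3 (0.147). It was also lost with library size scaling (0.117) and in a fit of only these 2 groups (0.202). The rise from 24 h to 96 h was called in all 12 alternatives.

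Aldh1a2 (ENSMUSG00000013584, chr9:71215789-71296243, plus strand), the dehydrogenase gene that makes most retinoic acid in the embryo, was not detected before 96 h. It was at 0 counts in all 16 samples up to 24 h, and at 96 h it measured 11.5 CPM (40 counts), 0 and 18.0 CPM (107 counts) in replicates 1, 2 and 3. The mean at 96 h was at least 8.71-fold higher than the 3-count limit of the samples at 0 h, and the difference was not called (adjusted p = 0.31). Counts of Aldh1a1 made up all of the counts of the 2 genes together in every sample except 2 of those at 96 h, where the shares were 98.4% (95% exact Clopper-Pearson interval 97.8 to 98.8) and 98.1% (97.6 to 98.4). The intervals cover counting error only, and counts of 3′ tags from different genes also reflect how well each end is captured.

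Rxra (ENSMUSG00000015846, chr2:27676440-27762957, plus strand), the gene of the shared dimer partner of the retinoic acid receptors, was the only member called at 3 h. It measured 219 and 171 CPM at 0 h and 75, 77.9 and 71.7 CPM at 3 h. It then measured 35, 39 and 24.8 CPM at 6 h and 30.6, 35.8 and 22.2 CPM at 12 h. From there the values were 64.3, 26.3 and 56.6 CPM at 18 h, 61.6 and 54.1 at 24 h, and 111, 97.2 and 129 at 96 h. Both samples at 0 h thus lay above all cultured samples, and the means were lowest at 6 h and 12 h. Relative to 0 h the log2 fold change was -1.38 ± 0.35 at 3 h (adjusted p = 0.0331, edgeR), -2.73 ± 0.36 at 12 h (6.15e-05), -1.75 ± 0.40 at 24 h (0.0104) and -0.80 ± 0.35 at 96 h, which did not pass (0.198). From 3 h to 6 h it fell by 1.18 ± 0.32 (adjusted p = 0.0536). The 3 samples at 96 h lay above both at 24 h, by 0.96 ± 0.36 on the log2 scale, which edgeR did not call (adjusted p = 0.282) and DESeq2 did (0.0434).

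The Rxra calls at 6, 12 and 18 h held in all alternatives tried. That at 3 h was lost without 0 h replicate 2 (adjusted p = 0.293) or without replicate 1, 2 or 3 at 3 h (0.1, 0.1 and 0.107), and that at 24 h without 24 h replicate 2 (0.134). The call from 3 h to 6 h was lost without 3 h replicate 1 or 2 (0.118 each), without 6 h replicate 1 or 3 (0.11 and 0.192) and without the filter on low counts (0.122).

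Rara (ENSMUSG00000037992, chr11:98927818-98974942, plus strand), which codes for the retinoic acid receptor alpha, was called lower by edgeR at 18, 24 and 96 h only. It measured 75.2 and 46.7 CPM at 0 h, 29.5, 29 and 26.4 CPM at 3 h. The next timepoints gave 29.4, 15.1 and 11.3 CPM at 6 h and 34.1, 23.7 and 24.3 CPM at 12 h. At 18 h the values were 17.3, 24 and 5.77 CPM, at 24 h 7.51 and 15.3, and at 96 h 18.6, 13.7 and 15.7. Every cultured sample lay below both samples at 0 h, and DESeq2 also called it lower at 6 h and 12 h. In edgeR's fit the cultured timepoints were not called different from their neighbours. Relative to 0 h the log2 fold change was -1.11 ± 0.64 at 3 h (adjusted p = 0.445, edgeR), -1.71 ± 0.64 at 6 h (0.119) and -1.16 ± 0.64 at 12 h (0.252), none of which passed. It was -1.96 ± 0.64 at 18 h (0.0595), -2.41 ± 0.75 at 24 h (0.0629) and -1.93 ± 0.64 at 96 h (0.0794). The calls at 18, 24 and 96 h were lost without 0 h replicate 2 (0.283, 0.29 and 0.41). Those at 24 and 96 h were also lost without 0 h replicate 3 (0.101 and 0.132). That at 18 h was lost without 18 h replicate 1 or 3 (0.111 and 0.155) and in a fit of only the 2 groups (0.152). The one at 24 h was lost without either of its samples (0.402 and 0.168) and that at 96 h without any 1 of its 3 samples (0.142, 0.191 and 0.184). With no filter on low counts the calls at 18, 24 and 96 h were lost (0.154, 0.182 and 0.212). That at 96 h was lost as well with isolation date as a term (0.111) and with library size scaling (0.112).

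Rarb (ENSMUSG00000017491, chr14:16430839-16819156, minus strand), which codes for the retinoic acid receptor beta, was at 0 counts in 15 of the 16 samples up to 24 h and had counts in all samples at 96 h. The values at 96 h were 24.1, 32.3 and 36.9 CPM (84, 168 and 219 counts), and the exception among the earlier samples was replicate 1 at 18 h with 28.8 CPM (118 counts). The mean at 96 h was at least 27.5-fold higher than the 3-count limit of the samples at 0 h and at least 60.4-fold higher than that of the samples at 24 h. In edgeR's fit the difference from 0 h was not called (adjusted p = 0.232), whereas DESeq2 called it, as did a fit of only the 2 groups. These calls are no support for a rise, since Rarb entered the tests through 96 h, where it is high. The end of Rarb overlaps the end of Top2b, a topoisomerase gene on the opposite strand, over 4624 bases, and whether counting used the strand is not given in the sources used here. Top2b was measured at 331 CPM at 0 h and 273 CPM at 96 h, with a log2 fold change of -0.28 (adjusted p = 0.596), and at means of 209 to 236 CPM in between. From 24 h (211 and 226 CPM) to 96 h (262 to 278 CPM) Top2b was higher without overlap, over the interval in which Rarb went from 0 to 31.1 CPM. The part of reads from Top2b in the counts of Rarb was not tested.

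**Figure D3:**
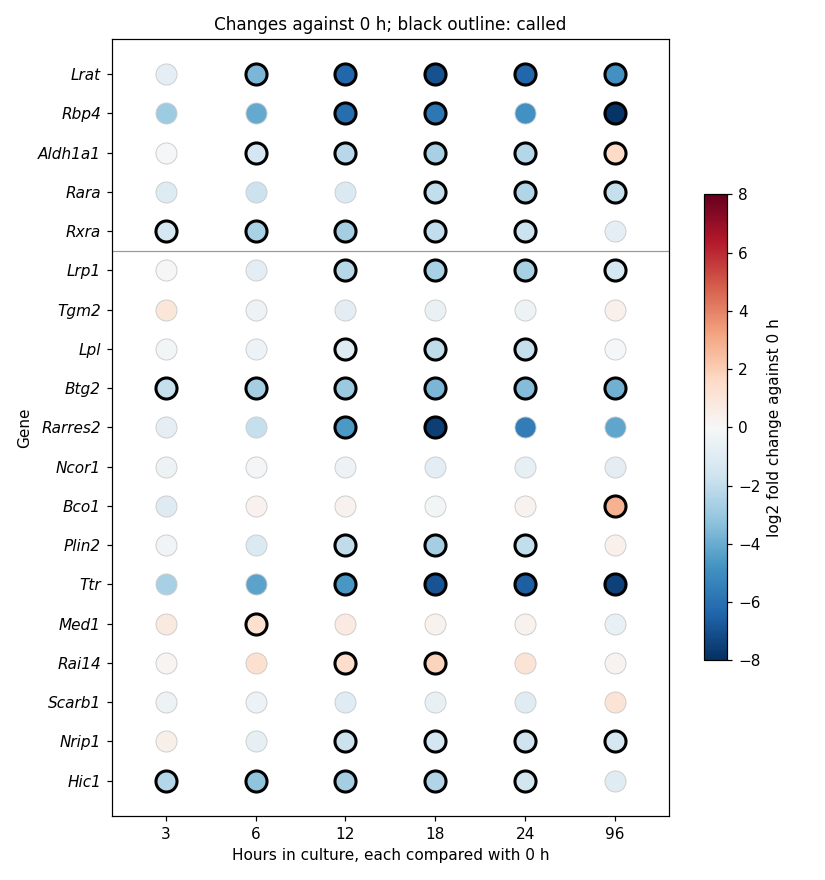
Log2 fold change against 0 h (colour) of the 5 vitamin A genes with counts at every timepoint, above the line, and of 14 other retinoid pathway genes with high levels, below it, for each timepoint in culture; a black outline marks a called change, over 2-fold with an adjusted p under 0.1. Lrat, Rbp4, Rarres2 and Ttr reach the darkest blues, and at 96 h Aldh1a1 and Bco1 are the outlined genes in red.

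Next, the other genes of the pathway were examined, from a list of 73 genes for binding and transport, interconversion, ester formation, retinoic acid synthesis and breakdown, receptors with their coregulators, and genes known to respond to retinoic acid. All 73 were in the table, 17 of them without a count, and 49 were tested. After 3, 6, 12, 18, 24 and 96 h, in this order, 3, 3, 14, 14, 9 and 7 of the 49 were called lower than at 0 h, while 2, 2, 3, 2, 0 and 2 were called higher. As shares of the 49 tested, the lower genes made up 6.12%, 6.12%, 28.6%, 28.6%, 18.4% and 14.3%, which can be read beside the shares of all genes given above. The higher genes made up 4.08%, 4.08%, 6.12%, 4.08%, 0% and 4.08%, none of them above the share of all genes called higher at that timepoint. The median log2 fold change of the 49 genes was -0.03 at 3 h, -1.71 at 12 h and -0.41 at 96 h. Calls in both directions at 3 h numbered 3 in place of 5 without 0 h replicate 3 or 3 h replicate 2 and 2 without 0 h replicate 2. At 6 h they numbered 2 in place of 5 without 0 h replicate 3, and 3 without 0 h replicate 2 or 6 h replicate 3. At 12 h they numbered 9, 11 and 10 in place of 17 without 0 h replicate 3, 0 h replicate 2 and 12 h replicate 2, and at 24 h 5 in place of 9 without 0 h replicate 2 or 24 h replicate 2.

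Of the binding and transport genes, Lrp1, a receptor that takes up chylomicron remnants, which carry dietary vitamin A, fell from a mean of 1500 CPM at 0 h to 240 at 24 h (log2 fold change -2.64, adjusted p = 1.45e-05). Scarb1, the gene of a receptor for lipoproteins and carotenoids, had a mean of 83.9 CPM at 0 h and 179 CPM at 96 h, a difference that did not pass the test (adjusted p = 0.338). Stra6, the gene of the membrane receptor for RBP4, was at 0 in every sample.

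Of the genes for lipid droplets and esters, Plin2, which codes for a coat protein of lipid droplets, fell from 208 and 198 CPM at 0 h to 22.2, 30.5 and 39.8 CPM at 18 h (log2 fold change -2.72, adjusted p = 0.000841). Lpl, the gene of lipoprotein lipase, fell from a mean of 544 CPM to 135 CPM at 18 h (-2.01, adjusted p = 1.82e-05). Bco1, listed with the interconversion genes, codes for the enzyme that cleaves beta-carotene to retinal. Its level was 72.2 and 94.9 CPM at 0 h and 451, 792 and 551 CPM at 96 h. All 3 samples at 96 h lay above every earlier one, and the log2 fold change from 0 h was 2.84 (adjusted p = 0.000371). It was not called different from 0 h at any earlier timepoint.

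Of the genes known to respond to retinoic acid, Btg2, an antiproliferative gene, fell from 1693 and 915 CPM at 0 h to 377, 295 and 394 CPM at 3 h and was called lower at every timepoint, with a log2 fold change of -3.83 at 96 h (adjusted p = 7.15e-07). Hic1, the gene of a transcriptional repressor, was called lower from 3 h to 24 h and had a log2 fold change of -3.21 at 6 h (adjusted p = 0.000123). Rarres2, which codes for the chemokine-like protein chemerin, fell from a mean of 698 CPM at 0 h to 3.68 CPM at 18 h (-7.51, adjusted p = 0.0147). Tgm2, the gene of tissue transglutaminase, had a mean of 454 CPM at 0 h, 901 CPM at 3 h and 594 CPM at 96 h and was not called at any timepoint against 0 h. Rai14 was called higher at 12 h and 18 h, with a log2 fold change of 1.84 at 18 h (adjusted p = 0.0228). Of the coregulators, Nrip1, a corepressor gene, was called lower from 12 h onwards (log2 fold change -1.43 at 96 h, adjusted p = 0.0372). Med1, of the mediator complex, was called higher at 6 h only (1.26, adjusted p = 0.0564). Ncor1, a corepressor of unliganded receptors, was between 146 and 264 CPM on average and was not called, its changes being smaller than 2-fold.

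The 3 genes that follow were chosen after their values were seen. Rdh10, which codes for the enzyme that oxidises retinol to retinal, rose from 24.3 and 32.1 CPM at 0 h to 243, 272 and 223 CPM at 3 h (log2 fold change 3.13, adjusted p = 0.00439) and was at 3.44, 12.5 and 7.92 CPM at 96 h, lower than at 0 h (-1.81, adjusted p = 0.0391). Cyp26b1, whose product degrades retinoic acid, was at 37.6 and 26.1 CPM at 0 h, at 0, 0.526 and 2.79 CPM at 18 h and at 132, 83.9 and 147 CPM at 96 h. It was called lower at 12 h and 18 h, and the level at 96 h, although above that of every other sample, was not called different from 0 h (1.92, adjusted p = 0.497) or from 24 h (6.13, adjusted p = 0.138). Fabp5, the gene of a lipid-binding protein that can bring retinoic acid to PPAR delta, rose from 7.02 and 13.1 CPM at 0 h to 163, 187 and 151 CPM at 96 h (4.07, adjusted p = 0.00122). Of the 3 genes whose sequence is printed above, Rarb and Bco1 were thus highest at 96 h, whereas Cyp26a1 was at 0 in every sample.

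From 24 h to 96 h, 6 of the 49 pathway genes tested were called higher (12.2%, beside 1.37% of all genes) and none was called lower. Among them were Lrp1, Bco1, Plin2, Lpl and Fabp5. Plin2 rose from 48.1 and 55.1 CPM to 229, 283 and 287 CPM (2.37, adjusted p = 0.0206) and Lpl from 118 and 167 CPM to 553, 593 and 403 CPM (1.86, adjusted p = 0.000558), and neither was called different from 0 h at 96 h. Lrp1 rose by 1.23 on the log2 scale (adjusted p = 0.0142) and was still called lower than at 0 h. Lrat, at 28.1 to 35.0 CPM, was not called higher than at 24 h.

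**Figure D4:**
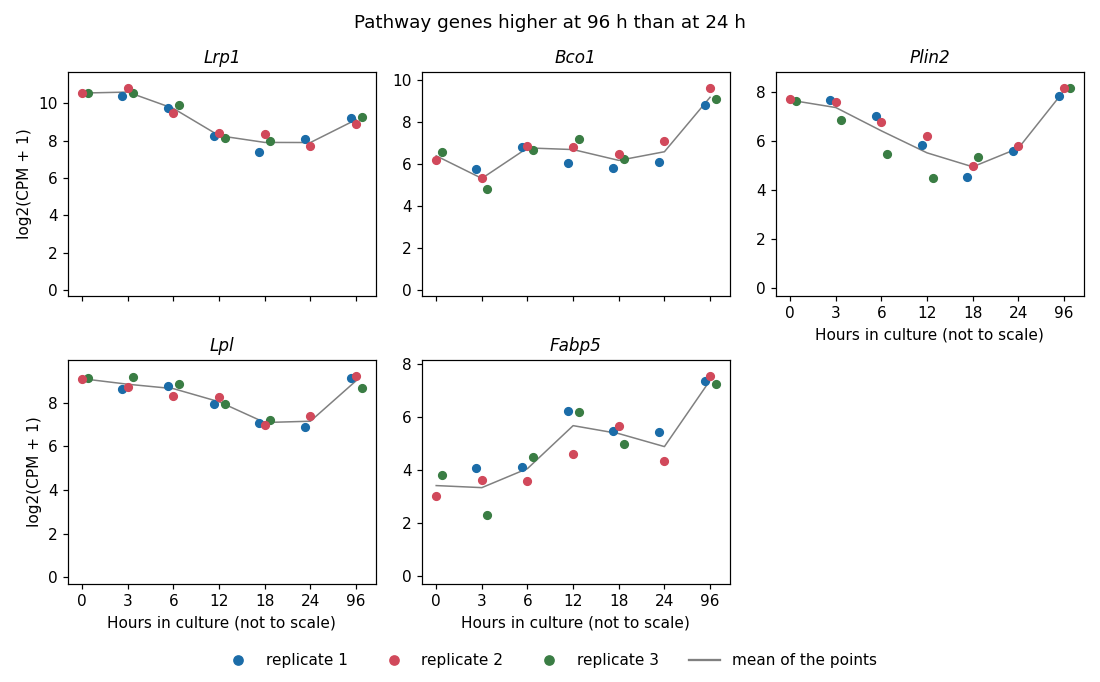
Level in each sample of 5 retinoid pathway genes called higher at 96 h than at 24 h, as log2(CPM + 1), against hours in culture; points are samples coloured by replicate number and the grey line joins the means. At 96 h Lpl overlaps its level at 0 h, Lrp1 lies between its levels at 24 h and 0 h, and Plin2, Bco1 and Fabp5 lie above all earlier samples. Plin2 and Lpl were not called different from 0 h at 96 h.

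Finally, the genes whose level was most like that of each vitamin A gene were listed, by Pearson's r of log2 CPM over the 19 samples among the 8607 genes that averaged 10 CPM or more. These values are a description, since the samples share their timepoints. Lrat was most like Epas1 (r = 0.94), Foxn3 (0.92) and Pik3r1 (0.92), of which Epas1 fell from 1004 CPM at 0 h to 299 at 18 h. Rxra was most like Epn2, Nr2f2 (0.93 each) and Chmp5 (0.92), and Nr2f2, which codes for the nuclear receptor COUP-TFII, went from 602 CPM at 0 h to 59.5 at 18 h and 311 at 96 h. Aldh1a1 was most like Plin2 (0.95), Prex2 (0.94) and Srpx2 (0.93), all of which had their lowest mean at 12 h or 18 h and their highest at 96 h. The genes most like Rbp4 included Cyp2d9 (0.87) and C3 (0.86), which hepatocytes express strongly. For Rarb they were Atoh8 (0.87), Nexn and Acta2 (0.83 each), of which Acta2, the smooth muscle actin gene of myofibroblasts, had 94.6 CPM at 0 h, 229 at 24 h and 3169 at 96 h. Aldh1a2 was most like Igfbp5 (0.84), Gm38056 (0.83) and Prss35 (0.81), which were also highest at 96 h. Outside 96 h, Aldh1a2 had no counts and Rarb only those of 18 h replicate 1. The genes most like these members therefore had to be high at 96 h, and their likeness is no support. For Rara (Akap7, Hes1 and Tns2) and Dgat1 (Ddx41, Tmub2 and Tmem223) the highest values were 0.77 and 0.78.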

How the data were processed

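RNASeq libraries were made with a 3′ tag kit (QuantSeq FWD), so that a gene's count depends on the capture of its end and levels of different genes are not on a common scale, which also holds for the share of Aldh1a1 and the ratio of Rbp4 to hepatocyte markers. According to the methods, single-end reads were trimmed and aligned with STAR to GRCm38 (mm10), StringTie was used, and the authors deposited raw counts per gene for the 19 samples. The counting tool, the annotation and the use of strand are not given in the sources used here. From these counts, genes were filtered (filterByExpr), scaled by TMM and fitted in 1 model of all samples with edgeR 4.0.16 (R 4.3.3, limma 3.58.1), and a call needed a fold change over 2 with an adjusted p under 0.1. DESeq2 1.42.0, library size scaling, no filter, the replicate number or isolation date as a term, fits of only the 2 groups compared, an adjusted p below 0.05, libraries thinned to the smallest total and each sample left out in turn were the alternatives. Totals ranged from 2073171 to 7690892 counts per sample, and the scripts were tested on simulated counts. Groups were taken from the sample labels. The methods state 3 independent repeats for each timepoint, of which 2 are in the table at 0 h and at 24 h. The labels do not expand the letter before the replicate number, so p-values measure the spread between these samples, which may be partly technical. Named in the text were all 8 members, the 15 tested pathway genes with the highest mean level, the 3 most similar genes of each member and the counts, sums and defining genes of each marker list. Some genes that this rule names are not reported here. The members and lists were chosen with earlier results of these data known. Figures were drawn with matplotlib 3.10.9 in Python 3.11.15.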

Additional observations from a re-analysis of the deposited data

How the results depend on the processing

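Of 669 values of Lrat, Rbp4, Aldh1a1, Rara and Rxra recomputed under the alternatives, 589 kept their direction and their side of the threshold, 55 lost the call, 16 gained it and 9 changed sign. The calls of Lrat against 0 h from 6 h, of Rxra at 6, 12 and 18 h, and of Aldh1a1 at 12, 18 and 24 h and from 24 h to 96 h held in every alternative. DESeq2 called 5 members in place of 3 at 6 h, 1 at each step between 6, 12, 18 and 24 h in place of 0, and 3 in place of 1 from 24 h to 96 h, and 9 pathway genes in place of 5 at 6 h. Fits of only the 2 groups called 2 members at 3 h and 2 from 24 h to 96 h, 10 pathway genes at 6 h and 15 in place of 9 at 96 h. The member calls from 24 h to 96 h under DESeq2 and in these fits include Rarb, and for Rarb they are no support. An adjusted p below 0.05 left 3 members at 18 h, 2 at 96 h, 1 from 3 h to 6 h, 3 pathway genes at 6 h and 11 in place of 17 at 12 h. Without the filter, or with thinned libraries, 1 member was called from 6 h to 12 h, and thinning gave 10 pathway genes at 6 h. For these shifts the cause was not tested.

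With 1 sample left out, a lone sample being assumed to vary like the other groups, the number of members called ranged from 0 to 1 at 3 h, 3 to 4 at 18 h, 2 to 3 at 24 h, 1 to 3 at 96 h, 0 to 2 from 3 h to 6 h and 0 to 1 from 6 h to 12 h. Pathway genes called ranged from 2 to 5 at 3 h, 2 to 5 at 6 h, 9 to 14 at 12 h and 5 to 8 at 24 h. The sign changes, none of them called, came from leaving out 1 sample: the log2 change of Rxra ranged from -0.33 to 0.02 from 6 h to 12 h (0.01 without 12 h replicate 3) and from -0.02 to 0.48 from 18 h to 24 h, that of Lrat from -1.21 to 0.85 and of Rbp4 from -2.65 to 1.79 (-0.23 without 12 h replicate 1) from 12 h to 18 h, and from 18 h to 24 h that of Rbp4 from -0.11 to 3.90 and of Rara from -1.01 to 0.03 (0.01 without 24 h replicate 1).

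Residuals of samples with the same number had a mean correlation of 0.014 over 51 pairs (-0.07 to 0.08), and those of different numbers -0.007 over 103 pairs, so the numbers were not taken as pairs. Residuals from the time means cancel within a timepoint, so the value for different numbers is not an independent baseline. With the replicate block, 5 members were called at 18 h and 4 at 96 h, and no call between timepoints changed for Lrat, Rbp4, Aldh1a1, Rara or Rxra. In the test over all timepoints, 4 members passed with the block in place of 5, and from 18 h to 24 h 2 of all genes were called in place of 6. The 5 include Rarb, which entered that test through 96 h, where it is high, and its value is no support. Over all genes, DESeq2 called 1595 in place of 844 at 3 h, 2667 in place of 1715 at 6 h, 2322 in place of 1440 at 24 h, 1395 in place of 680 from 3 h to 6 h and 887 in place of 411 from 24 h to 96 h, and 923, 467 and 241 in place of 278, 34 and 6 at the steps between. Fits of only the 2 groups called 7 and 0 of all genes from 12 h to 18 h and from 18 h to 24 h, and 643 from 24 h to 96 h. An adjusted p below 0.05 left 166 from 6 h to 12 h and 273 from 24 h to 96 h, and thinning left 3 from 18 h to 24 h. Scaling by library size only moved the median log2 change of all genes to 0.24 at 24 h and 0.22 at 96 h. The share of lower calls went from 40.6% to 28.5% at 24 h, from 51.8% to 41.8% at 18 h, from 44.3% to 34.2% between 3 h and 6 h and from 49.6% to 63.1% between 24 h and 96 h. Samples at 0 beside replicates with 55 to 339 counts limit what can be said of Dgat1, and single samples or 1 timepoint with counts limit what can be said of Rarb and Aldh1a2.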
